A study of Mus musculus with 19 samples.

Results

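The Tox family comprises 4 genes, Tox, Tox2, Tox3 and Tox4, whose proteins share an HMG box, a fold that binds and bends DNA with little regard to its sequence. They were taken by symbol from the deposited expression table, where all 4 of the 4 were present among 18607 genes. The table covers 19 RNA-seq libraries of sorted bone marrow progenitors from C57BL/6 mice, at 3 lymphoid stages on the way to innate lymphoid cells (ILC). ALP (7 libraries) were lineage-low, Ly-6D-low cells that carry Kit, IL-7Rα and much Flt3. EILP, early innate lymphoid progenitors (7 libraries), were lineage-low and Ly-6D-low cells with Kit and high GFP, with low CD122 and Thy-1.2 and with IL-7Rα at an intermediate to low level. ILCp, ILC progenitors (5 libraries), were lineage-low, Ly-6D-low and CD122-low cells with Kit and high GFP, and in addition with Thy-1.2, high IL-7Rα and the integrin α4β7. Mice of every ALP and EILP library and of ILCp 1 to 3 were heterozygous for a reporter allele of Tcf7 (Tcf7EGFP/+), so that GFP in the gate reports the gene of the transcription factor TCF-1. ILCp 4 and ILCp 5 came from Plzf-cre-GFP/+ mice, in which GFP reports Zbtb16, the PLZF gene. The labels do not give the age of the mice or say whether each library is from its own animals. The p-values therefore speak of the spread among these libraries, part of which may be technical.

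TOX is needed in mice for the development of ILC and natural killer (NK) cells and of CD4 T cells, and it is also known for maintaining exhausted CD8 T cells during chronic stimulation. TOX2 takes part in NK cell maturation and in follicular helper T cells. TOX3 is known mainly from neurons and epithelia. TOX4 is a widely expressed nuclear protein that works with a phosphatase complex containing PNUTS and PP1, which acts on RNA polymerase II.

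The family resemblance is shown here by the stretch of the HMG box, at a length set beforehand, with the most identical residues and then bases. It spans 25 codons (75 bases), lies within 1 coding exon of each gene, and encodes 25 of 25 identical residues, while 53 of the 75 bases are the same in all 4 genes. Capitals mark those shared bases. Each sequence reads in the direction of the gene and comes from the GENCODE vM21 transcripts on GRCm38.
Tox, chr4:6722228-6722302, minus strand: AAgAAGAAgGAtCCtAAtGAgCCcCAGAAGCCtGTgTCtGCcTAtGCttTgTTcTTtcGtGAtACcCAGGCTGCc
Tox2, chr2:163315858-163315932, plus strand: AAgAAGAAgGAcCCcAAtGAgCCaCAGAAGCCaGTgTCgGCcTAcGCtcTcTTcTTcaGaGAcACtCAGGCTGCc
Tox3, chr8:90254365-90254439, minus strand: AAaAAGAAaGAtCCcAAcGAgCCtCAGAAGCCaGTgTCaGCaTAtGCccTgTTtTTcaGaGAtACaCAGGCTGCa
Tox4, chr14:52287367-52287441, plus strand: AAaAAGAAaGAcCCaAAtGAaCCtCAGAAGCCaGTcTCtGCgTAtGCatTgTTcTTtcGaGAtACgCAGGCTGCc

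The differences between the genes in this stretch left every residue as it was. Outside it the proteins are less alike as a whole, although many identical positions lie there too. Over the whole length the residue identity of a pair ran from 43.6% (TOX2 and TOX4) to 51.2% (TOX and TOX3), with 50.5% for TOX and TOX2, and 115 of the 406 aligned positions without a gap were the same in all 4. The coding sequences have 1578 (Tox), 1641 (Tox2), 1725 (Tox3) and 1857 (Tox4) bases. The longest run of bases shared by transcripts of 2 members was 14 to 24 bases, so the members are distinct at the level of RNA.

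The genes lie on separate chromosomes of GRCm38. Tox (ENSMUSG00000041272.11) spans chr4:6686353-6991557 on the minus strand, and Tox2 (ENSMUSG00000074607.11) spans chr2:163203125-163324170 on the plus strand. Tox3 (ENSMUSG00000043668.13) spans chr8:90247040-90348343 on the minus strand, and the compact Tox4 (ENSMUSG00000016831.12) spans chr14:52279146-52296401 on the plus strand.

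For Tox2, the member with the largest difference between stages, the bases before a pair of its RefSeq starts (GRCm38.p6, plus strand) are printed to show the context in which its RNA can begin. The table holds 1 value per gene and does not say which start was used. The first start lies at the head of the gene, and its window is shown up to the first base of the GENCODE gene. The internal start lies at chr2:163225453. The last part of its window is coding exon of another GENCODE transcript.
Tox2, head of the gene, chr2:163202877-163203124: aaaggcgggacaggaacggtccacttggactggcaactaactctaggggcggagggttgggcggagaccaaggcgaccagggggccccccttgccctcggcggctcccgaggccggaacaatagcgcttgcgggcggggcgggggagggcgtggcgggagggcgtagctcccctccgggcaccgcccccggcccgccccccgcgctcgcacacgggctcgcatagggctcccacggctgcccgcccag
Tox2, internal start, chr2:163225203-163225452: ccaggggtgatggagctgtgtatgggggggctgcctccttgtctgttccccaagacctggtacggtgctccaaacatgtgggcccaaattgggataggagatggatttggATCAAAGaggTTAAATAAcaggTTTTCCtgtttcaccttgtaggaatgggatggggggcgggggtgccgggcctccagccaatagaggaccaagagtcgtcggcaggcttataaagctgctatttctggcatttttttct

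Capitals in the internal window mark ATCAAAG (a TCF/LEF motif, 140 bases before the start), TTANNTAA (an NFIL3 motif, 130 bases before it) and GGAAAA on the other strand (an NFAT core, 118 bases before it). No pair of these matches overlaps. The 250 bases before the first start are rich in G and C (75.2%, against 52.8% before the internal start). Neither these bases nor the internal window held AGATAA, the motif of GATA factors, and the first window held none of the other motifs searched on both strands. Of 32817 RefSeq windows of 250 bases, 3.21% held ATCAAAG, 5.43% TTANNTAA, 9.99% AGATAA and 20.4% GGAAAA. The motifs were chosen after the Tox2 sequence was seen, and a match is a description of the letters only. RefSeq starts were matched for Tox2 (5 starts), Tox3 and Tox4, and the entry for Tox was missing. The internal window was picked for print because it held an NFAT match. The windows before the Tox2 starts at chr2:163203283 and chr2:163204186, and those of Tox3 and Tox4, held none of the motifs searched.

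Values are the authors' log2 CPM (reads scaled to library size, on a log2 scale). Judged by the values, every library was given nearly the same distribution and the batch differences were taken out before deposit, so the SDs below leave out the spread between the 5 sequencing batches. Depth is unknown, and the sums of CPM were 908573 to 1035204 per library. Pairwise correlations between libraries, over 9351 genes with a mean above 2, ran from 0.376 to 0.904. A level that at least 2 libraries of a batch share as the lowest is called their lowest shared level, and a difference against it depends on where it lies. Differences were tested with limma with batch in the model and adjusted over all genes, at an adjusted p below 0.05. They carry standard errors (SE) of that model. Of all genes, 2.25% were called higher and 2.79% lower in EILP than in ALP, 1.76% higher and 1.46% lower in ILCp than in EILP, and 3.86% higher and 4.39% lower in ILCp than in ALP. In bulk samples, fewer cells with a transcript and less of it per cell cannot be told apart.

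Tox RNA was present in ALP and was about 18-fold more abundant in EILP. The ALP libraries ran from 2.99 over a median of 3.95 to 4.10 log2 CPM, and the EILP libraries from 7.52 over 8.02 to 8.13. The ILCp libraries 1 to 5 stood at 8.26, 9.42, 8.27, 8.81 and 8.64. The 3 groups did not overlap in Tox, although the lowest ILCp library lay just 0.13 above the highest EILP library. Tox moved from near the middle of the transcriptome to its upper end, with a median percentile among all genes of a library of 57.5 in ALP, 96.3 in EILP and 98.2 in ILCp.

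The means of Tox were 3.77 ± 0.40 (SD, n = 7) in ALP, 7.94 ± 0.20 (n = 7) in EILP and 8.68 ± 0.48 (n = 5) in ILCp. Tox was higher in EILP than in ALP by 4.17 ± 0.24 log2 (SE, 95% interval 3.66 to 4.69, limma adjusted p = 4.7e-08), with the 6th smallest p of 18607 genes. ILCp exceeded ALP by 4.91 log2, or 30-fold (limma adjusted p = 2.95e-08). From EILP to ILCp the difference was 0.74 ± 0.29 log2 (95% interval 0.13 to 1.35) and did not pass (limma adjusted p = 0.194). Without batch in the model the difference was the same with a smaller SE (0.21), and it passed (limma adjusted p = 0.0203). That model overstates its degrees of freedom, since batch differences were taken out beforehand. Without ILCp 2, the highest library, the difference was 0.36 (limma adjusted p = 0.585).

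Within batches the rise of Tox from ALP to EILP was nearly constant. It was 3.96 log2 in batch 1, 3.91 in batch 2, 4.13 in batch 4 and 4.32 in batch 5. The step from EILP to ILCp was small in batches 1 and 4 (0.21 and 0.49) and larger in batch 2 (1.90), where it rests on EILP 2 and ILCp 2 alone. EILP 2 was the lowest EILP library in Tox, Tox2 and Tox4, and it also had the highest summed level of the 5 myeloid marker genes, 36700 CPM, where the EILP libraries ran from 1370 over a median of 5450 CPM. The part of these markers in its Tox values was not tested, and without EILP 2 the rise from ALP to EILP was 4.33 log2 for Tox (limma adjusted p = 4.44e-07) and 11.60 for Tox2 (limma adjusted p = 1.78e-06). The change from the first step to the second was itself tested. The second step was smaller for Tox by 3.43 ± 0.45 log2 (second minus first −3.43, SE, limma adjusted p = 0.000591), a test that called 2.41% of all genes in either direction (449 genes, or 233 without EILP 5).

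Tox2 RNA went from the bottom of the table to the level of Tox. ALP libraries ran from −5.05 over a median of −4.48 to −1.03 log2 CPM, and ALP 5, 6 and 7 stood at the lowest shared level of batch 5 (−4.48). ALP 3 (−2.21) and ALP 4 (−1.03) were the highest of the group, yet still far below any EILP library. ALP 1 and ALP 4 are the only ALP libraries of batches 1 and 4, so a lowest shared level of Tox2 could not show for them. Such a level differs between batches, as for Tox3 (−5.36 in batch 1 and −3.52 in batch 5). The order of ALP libraries from different batches is therefore uncertain. EILP libraries ran from 5.68 over 7.45 to 8.84 and ILCp 1 to 5 stood at 9.46, 9.31, 7.87, 8.86 and 8.55. ALP overlapped with neither later group, and the later groups overlapped with each other, with 3 of 5 ILCp libraries above the highest EILP library. Tox2 stood at the median percentile 21.4 in ALP, 93.5 in EILP and 98.7 in ILCp.

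The means of Tox2 were −3.68 ± 1.48 (SD, n = 7) in ALP, 7.30 ± 1.19 (n = 7) in EILP and 8.81 ± 0.64 (n = 5) in ILCp. The difference between EILP and ALP, 10.98 ± 0.76 log2 (SE, 95% interval 9.36 to 12.6, limma adjusted p = 2.72e-07), was the 4th largest increase in the table. Its size depends on the low end of the scale, so no fold is given. ILCp stood above ALP by 12.49 log2 (limma adjusted p = 3.35e-07), the 9th largest increase. Between EILP and ILCp the difference of 1.51 log2 (95% interval −0.411 to 3.43) was not called (limma adjusted p = 0.433). With ALP left out of the model it was 2.58 (limma adjusted p = 0.0422). Without EILP 5 it was 0.63 (limma adjusted p = 0.843) and without EILP 2 it was 0.91 (limma adjusted p = 0.719).

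Unlike the rise of Tox, that of Tox2 varied from batch to batch. EILP exceeded ALP by 13.07 log2 in batch 1, 8.80 in batch 2, 6.83 in batch 4 and 12.99 in batch 5. Batches 2 and 4 held both the highest ALP libraries (ALP 3 and ALP 4) and the lowest EILP libraries (EILP 2 at 5.68 and EILP 5 at 5.80). These positions and the smaller differences are not separate observations, since with batch differences taken out the libraries of a batch offset each other. ILCp exceeded EILP in each of the 3 batches with both groups, by 1.44, 3.63 and 2.63 log2 in batches 1, 2 and 4. Each of those batches has 1 EILP library, and the model also draws on batches without ILCp, where EILP was high (EILP 6 at 8.17 and EILP 7 at 8.84). The second step was smaller than the first by 9.47 ± 1.43 log2 (second minus first −9.47, SE, limma adjusted p = 0.00175).

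**Figure D1:**
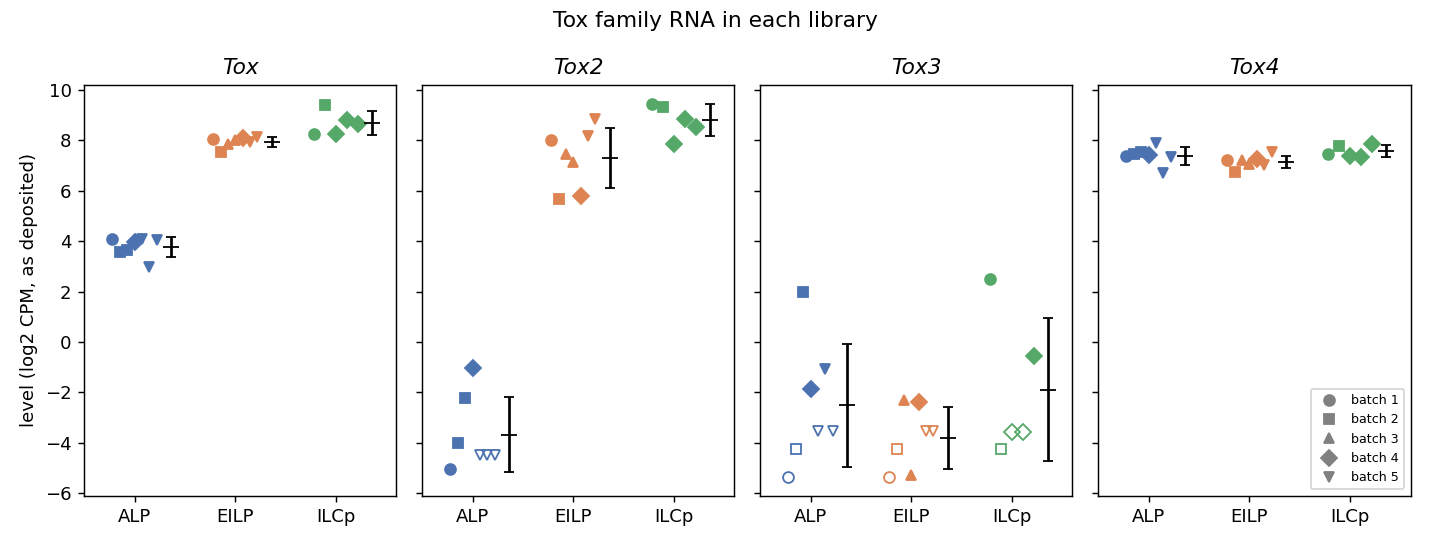
Level of each Tox family gene (log2 CPM as deposited) in the 7 ALP, 7 EILP and 5 ILCp libraries. Symbols give the sequencing batch, open symbols lie at the lowest level shared in their batch, and black marks give the mean ± SD. Tox and Tox2 lie higher in every EILP and ILCp library than in any ALP library, Tox3 lies low with 11 open symbols, and Tox4 stays between 6.69 and 7.89.

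Tox3 was at or near the bottom of the table in most libraries. In 11 of the 19 libraries (4 ALP, 4 EILP and 3 ILCp) it stood at the lowest shared level of its batch. ALP ran from −5.36 over a median of −3.52 to 1.97 log2 CPM and EILP from −5.36 over −3.52 to −2.31. ILCp 1 to 5 stood at 2.50, −4.23, −3.58, −3.58 and −0.55. Thus 1 ILCp library (ILCp 1) and 1 ALP library (ALP 3) rose above 1 log2 CPM, and no EILP library did. All groups overlapped.

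No comparison called Tox3, and the intervals were wide. EILP minus ALP was −1.29 log2 (95% interval −4.26 to 1.68, limma adjusted p = 0.673). ILCp minus EILP was 1.92 (95% interval −1.6 to 5.43, limma adjusted p = 0.618), and without ILCp 1 its sign turned (−0.39). ILCp minus ALP was 0.63 (limma adjusted p = 0.882), and it turned to −1.58 without ILCp 1 and to −0.43 without ALP 1. Batch 1 alone gave a difference of 7.86 between ILCp and EILP, against 0 in batch 2 and −0.17 in batch 4. At these levels a change in Tox3 was not detectable.

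Tox4 was abundant at every stage. ALP libraries ran from 6.69 over a median of 7.42 to 7.89 log2 CPM, and EILP libraries from 6.74 over 7.23 to 7.52. ILCp 1 to 5 stood at 7.47, 7.79, 7.38, 7.33 and 7.84. The groups overlapped throughout, and the median percentile of Tox4 was 92.4, 91.9 and 93 in ALP, EILP and ILCp.

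The means of Tox4 were 7.39 ± 0.36 (SD, n = 7), 7.16 ± 0.24 (n = 7) and 7.56 ± 0.24 (n = 5) in the same order. EILP minus ALP was −0.23 log2 (95% interval −0.639 to 0.175, limma adjusted p = 0.57). ILCp minus EILP was 0.41 (95% interval −0.0737 to 0.889, limma adjusted p = 0.392) and ILCp minus ALP 0.18 (95% interval −0.289 to 0.64, limma adjusted p = 0.725). These intervals leave room for differences below 1 log2 in either comparison of neighbouring stages. Within batches Tox4 was lower in EILP than in ALP by small amounts (−0.17, −0.74, −0.16 and −0.04 in batches 1, 2, 4 and 5) and higher in ILCp than in EILP (0.24, 1.05 and 0.26 in batches 1, 2 and 4). Neither the change from the first step to the second passed for Tox4 (0.64 log2, limma adjusted p = 0.404) nor for Tox3 (3.21 log2, limma adjusted p = 0.577).

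**Figure D2:**
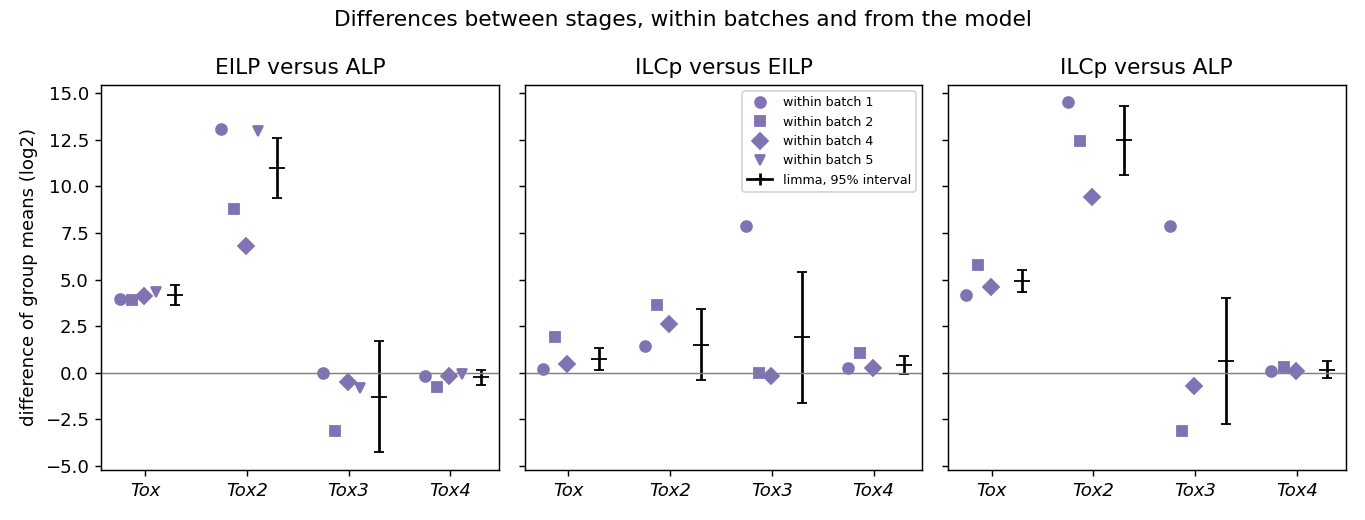
Difference between stages for each gene (log2), with the differences within single batches as violet symbols and the limma estimate with its 95% interval in black. For Tox the 4 batches give 3.91 to 4.32 between ALP and EILP, for Tox2 they give 6.83 to 13.07, and the intervals of Tox3 and Tox4 include 0 in all 3 comparisons.

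Reads overlapping 2 genes could blur these values, since the library kits do not mark the strand. Gm11802, an antisense gene inside Tox, stood at mean levels of −5.09, −3.15 and −4.28 log2 CPM in ALP, EILP and ILCp and was not called between EILP and ALP (1.94 log2, limma adjusted p = 0.297). Its level was far below that of Tox. Rab2b, a small GTPase gene, overlaps the start of Tox4, and Mettl3, the catalytic subunit of the RNA m6A methyltransferase, overlaps its end, both on the other strand. Rab2b stood at 4.60, 4.71 and 5.83 and Mettl3 at 4.69, 4.53 and 5.08 log2 CPM in the same order, and neither was called in any of the 3 comparisons.

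To order the family within a stage, levels were divided by transcript length, using the transcript with the longest coding sequence (3961 bases for Tox, 2166 for Tox2, 3356 for Tox3 and 5350 for Tox4). In ALP the order was Tox4 (4.97 log2 CPM per kb), Tox (1.78), Tox3 (−4.27) and Tox2 (−4.80). In EILP it was Tox2 (6.18), Tox (5.95), Tox4 (4.74) and Tox3 (−5.56). In ILCp it was Tox2 (7.69), Tox (6.69), Tox4 (5.14) and Tox3 (−3.64). With the longest coding transcript of Tox2 (2947 bases), Tox2 was at 5.74 in EILP, just below Tox, and at 7.25 in ILCp. Neighbours in the order whose gap per kb is small against the SDs are Tox3 and Tox2 in ALP and Tox2 and Tox in EILP, and these do not differ beyond their spread. In ILCp the gap between Tox2 and Tox depends on the transcript taken.

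Set against each other within a library, the levels of Tox2 and Tox converged. Tox2 minus Tox on the scale of log2 CPM, without correction for length, was −7.45 ± 1.52 (SD, n = 7) in ALP. It was −0.64 ± 1.10 (n = 7) in EILP and 0.13 ± 0.62 (n = 5) in ILCp. In ALP every library lay between −9.14 (ALP 1) and −4.98 (ALP 4). In EILP they lay between −2.28 (EILP 5) and 0.71 (EILP 7), and in ILCp between −0.39 (ILCp 3) and 1.20 (ILCp 1).

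Tox2 thus gained more than Tox between ALP and EILP, by 6.81 log2 with no overlap of the 7 and 7 libraries (exact two-sided permutation test p = 0.000583, adjusted over 3 comparisons 0.00175, the smallest p the design allows). Within batches 1, 2, 4 and 5 it was 9.11, 4.89, 2.71 and 8.67 log2. Gains over ALP depend in size on the low end of the scale, where Tox2 lay in ALP. Between ALP and ILCp the gain was 7.59 log2 (exact permutation p = 0.00253, adjusted 0.00379, again the smallest possible p). Between EILP and ILCp it was 0.77 log2 and did not pass (exact permutation p = 0.192, adjusted 0.192). The permutations took no account of batch, which is not balanced over the groups, or of its apparent removal before deposit. EILP 3 and 4 alone make up batch 3, so after such a removal they add nothing to the difference. They were still counted among the 7 EILP libraries. These p-values may therefore be too small.

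**Figure D3:**
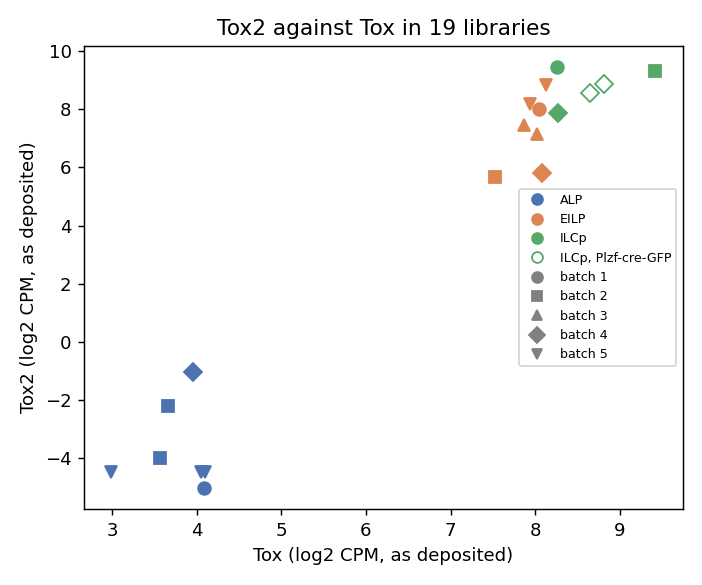
Tox2 against Tox (both log2 CPM as deposited) in the 19 libraries, coloured by stage, with symbols for batch and open symbols for the Plzf-cre-GFP libraries. The ALP libraries lie at 2.99 to 4.10 for Tox and at or below −1.03 for Tox2, and the EILP and ILCp libraries lie together at or above 7.52 for Tox and 5.68 for Tox2.

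The 2 Plzf-cre-GFP libraries and the 3 Tcf7EGFP libraries of ILCp were compared next. ILCp 4 and 5 averaged 8.73 log2 CPM for Tox, 8.71 for Tox2, −2.06 for Tox3 and 7.59 for Tox4. ILCp 3, the Tcf7EGFP library of the same batch, stood at 8.27, 7.87, −3.58 and 7.38. The Plzf-cre-GFP libraries lay within the range of the 3 Tcf7EGFP libraries for Tox (8.26 to 9.42) and Tox2 (7.87 to 9.46). The model gave Plzf-cre-GFP minus Tcf7EGFP as 0.10 log2 for Tox (95% interval −0.828 to 1.03), −0.22 for Tox2 (−3.16 to 2.72), −0.37 for Tox3 and 0.05 for Tox4, each with a limma adjusted p of 1. This comparison called 0.0752% of all genes (14 of 18607). That count rests on single libraries: it was 236 without ILCp 4, 134 without ILCp 5, 50 without ILCp 3, 37 without EILP 3, 36 without EILP 4, 35 without EILP 5, 29 without ALP 4, 26 without ILCp 1 and 24 without ILCp 2. The intervals leave differences of about 1 log2 for Tox and several log2 for Tox2 undetected.

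The genes most like Tox and Tox2 were sought by the smallest root mean square difference of centred log2 values over the 19 libraries, among 9302 genes above the median mean level. Closest to Tox was Id2, an inhibitor of E proteins that is required for ILC development, at a distance of 0.67 log2. Id2 stood at 4.82 ± 0.46 (SD, n = 7), 9.40 ± 0.31 (n = 7) and 10.93 ± 0.32 (n = 5) log2 CPM in ALP, EILP and ILCp. It was followed by Sema4a (0.86), a semaphorin, Rgs3 (0.90), a regulator of G protein signalling, Irak2 (0.91), a kinase of interleukin-1 and Toll-like receptor signalling, and 9230105E05Rik (0.93). Of these, 9230105E05Rik stood at 5.10 ± 0.65 in EILP (n = 7) and at 4.99 ± 0.91 in ILCp (n = 5), while the mean of the other 4 was higher in ILCp.

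Closest to Tox2 was Fgf3, a fibroblast growth factor, at a distance of 1.02 log2, with −3.76 ± 1.54 (n = 7), 7.25 ± 0.76 (n = 7) and 7.13 ± 1.15 (n = 5) log2 CPM in ALP, EILP and ILCp. Rxrg, a retinoid X receptor, followed at 1.14. The next were segments of T cell receptor loci, Tcrg-C4 (1.15), Trbj1-1 (1.48) and Trbc1 (1.51). Trbc1 stood at −3.50 ± 2.15 (n = 7), 7.69 ± 0.26 (n = 7) and 9.48 ± 0.57 (n = 5) log2 CPM. Trbc1 can share reads with its near-identical copy, so its level is uncertain. RNA of the CD3 chains and of the T cell receptor α constant region (Cd3d, Cd3e, Cd3g and Trac) stood at group medians of at most 3.55 log2 CPM (Cd3g in ILCp). With Cd5 these T cell markers summed to 0.165 to 20.8 CPM in ALP, 1.53 to 25.5 in EILP and 1.58 to 33.4 in ILCp, with 4, 2 and 3 of the 5 at a median below 0 log2 CPM.

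Markers of other cell types that the gates could hold were read in the same way. The 4 NK cell markers summed to 0.528 to 19.3 CPM in ALP, 0.393 to 85.4 in EILP and 6.52 to 36 in ILCp. For mature ILC2, 3 of 4 listed markers were in the table, and they summed to 0.135 to 8.67, 0.0921 to 3.49 and 14.3 to 43.5 CPM. The 4 B cell markers summed to 0.796 to 91 CPM in ALP and to at most 9.07 in EILP and 0.482 in ILCp. The 5 myeloid markers were higher, at 478 to 4370, 1370 to 36700 and 96.3 to 1530 CPM. From ALP to EILP the myeloid markers went in different directions, with higher means for Mpo (9.68 and 11.81 log2 CPM) and Elane (5.11 and 9.09) and lower means for Csf1r (7.20 and 4.52), Lyz2 (8.40 and 6.04) and Itgam (4.69 and 3.73). The 4 erythroid markers summed to 1.84 to 75.9, 21.9 to 399 and 8.49 to 433 CPM. The part of these cells in the Tox family values was not tested beyond the values without EILP 2 given above. Of the genes used for sorting, Kit stood at 7.98, 8.67 and 9.15 log2 CPM in ALP, EILP and ILCp, Flt3 at 10.21, 7.34 and 3.25, Il7r at 7.46, 5.34 and 9.93, Tcf7 at 1.06, 10.51 and 9.24 and Thy1 at −2.84, 0.07 and 5.30. The genes of the α4β7 integrin, which is part of the ILCp gate, stood at 7.27, 9.38 and 8.76 (Itga4) and at 6.54, 9.04 and 9.19 (Itgb7), and Zbtb16, the reporter gene of ILCp 4 and 5, at −2.40, 6.97 and 6.48. The ILCp mean was below the EILP mean for Itga4 and Zbtb16 and above it by less than 1 SD for Itgb7.

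Among the other HMG-box genes, 29 of 41 listed were in the table. Between ALP and EILP 2.25% of all genes were called higher and 2.79% lower. Among the 29, 2 rose, 4 fell and 23 were not called, with a median difference of −0.06 log2 against 0 over all genes. Those that rose were Lef1 (from −5.29 ± 0.33 to 4.55 ± 0.67 log2 CPM, SD, n = 7 each) and Tcf7 (from 1.06 ± 2.64 to 10.51 ± 1.85), which encode the transcription factors LEF-1 and TCF-1. Tcf7 carries the reporter on which EILP were sorted, and its rise is therefore set by the gate. Tox and Tox2 were thus members of a small set of HMG-box genes called higher in EILP, with Lef1 (9.83 log2, limma adjusted p = 4.21e-08) between them in size.

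The HMG-box genes that fell between ALP and EILP were Tcf7l2 (−4.17 log2), another TCF family member, Sox13 (−5.41 log2), and the chromatin proteins Hmgb1 (−0.43 log2) and Hmgb2 (−0.71 log2), with limma adjusted p from 0.000307 for Hmgb1 to 0.039 for Sox13. Hmgb1 was no longer called after median centring (−0.22 log2, limma adjusted p = 0.129) or without the trend in limma (0.123). From EILP to ILCp limma called 0 of the 29, where 5 had an unadjusted p below 0.05. The median of the 29 was −0.08 log2 against −0.078 over all genes. With 1.76% of all genes called higher and 1.46% lower, a count of 0 among 29 says little. Between ALP and ILCp 3.86% of all genes were called higher and 4.39% lower. Of the 29, 2 rose (Lef1 and Tcf7) and 5 fell, with a median of −0.48 log2 against −0.034 over all genes. Among those that fell was Ssrp1, a subunit of the histone chaperone FACT (−0.53 log2, limma adjusted p = 0.0106, or 0.0973 after median centring, 0.096 without ILCp 2, 0.129 without the trend in limma and 0.0522 with EILP left out of the model).

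Tox4 works in the PP1-PNUTS phosphatase complex, and its 5 listed partners were all in the table. Between ALP and EILP limma called 0 of the 5 (2 had an unadjusted p below 0.05), with a median of −0.05 log2 against 0 over all genes. At the shares called over all genes (2.25% higher and 2.79% lower), a count of 0 among 5 says little. Ppp1cc, a catalytic subunit of PP1, rose from EILP to ILCp by 0.53 log2 (from 7.89 ± 0.09, n = 7, to 8.42 ± 0.17, n = 5) and exceeded ALP by 0.47 log2. The rise of Ppp1cc from EILP lost its call after median centring (limma adjusted p = 0.0598), without the Plzf-cre-GFP libraries (0.054) and without batch 4 (0.0929), as well as without EILP 1, EILP 5 or ILCp 1 (0.0509, 0.0644 and 0.0602). Its excess over ALP lost the call without batch 4 (0.0707) and without ILCp 1 (0.053). Neither call held without the trend in limma (0.168 and 0.148) or with only the 2 groups compared in the model (0.073 and 0.0685). The other 4 partners were not called in either comparison, and the medians were −0.08 and 0.31 log2. Over all genes 1.76% were called higher in ILCp than in EILP and 3.86% higher than in ALP.

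Calcineurin, NFAT and Nr4a factors induce Tox in stimulated T cells, and 10 of 10 listed genes were in the table. Between ALP and EILP limma called 0 of the 10 (3 had an unadjusted p below 0.05), with a median of −0.28 log2 against 0 over all genes. With 2.25% of all genes called higher and 2.79% lower, a count of 0 among 10 says little. Between EILP and ILCp 1 rose, Ppp3r1, the regulatory subunit of calcineurin (from 6.48 ± 0.41, n = 7, to 7.68 ± 0.20, n = 5). Its difference of 1.20 log2 lost its call without the Plzf-cre-GFP libraries (limma adjusted p = 0.1), without batch 4 (0.0827), with ALP left out of the model (0.139), without the trend in limma (0.0722) and without EILP 1, EILP 2, ILCp 1 or ILCp 5 (0.0578 to 0.0832). Between ALP and ILCp 2 rose, Nfatc3, an NFAT factor, by 1.10 log2, and Ppp3r1 by 0.94 log2. Both lost the call without batch 4 (limma adjusted p of 0.0759 for Nfatc3 and 0.2 for Ppp3r1). Ppp3r1 also lost it without the trend in limma (0.0888), without the Plzf-cre-GFP libraries (0.117) and on leaving out any of 12 single libraries, ALP 1, 2, 4 or 6, EILP 3, 4 or 7, or ILCp 1, 2, 3, 4 or 5 (0.0502 to 0.217). The medians of the list were 0.70 and 0.22 log2. The HBO1 complex, a histone acetyltransferase that binds TOX in T cells, had 10 of 10 genes in the table, and limma called 0 of them in each of the 3 comparisons (1, 0 and 2 had an unadjusted p below 0.05, with medians of −0.05, −0.09 and −0.08 log2). Over all genes 1.46% to 4.39% were called per direction and comparison, so 0 among these 10 also says little.

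Of 8 inhibitory receptors that accompany TOX in exhausted T cells, 7 were in the table. Between ALP and EILP 2 rose and 1 fell, with a median of −0.32 log2 against 0 over all genes. Of all genes, 2.25% were called higher and 2.79% lower. Pdcd1, which encodes PD-1, went from −0.37 ± 3.51 to 7.80 ± 1.21 log2 CPM (SD, n = 7 each) and stood at 9.10 ± 0.70 (n = 5) in ILCp. Cd160 went from −4.13 ± 1.89 to 2.39 ± 1.96, and the rise was not called without batch 4 (limma adjusted p = 0.0631). Havcr2, the TIM-3 gene, moved the other way, from 4.45 ± 1.12 in ALP to −3.97 ± 1.36 in EILP (difference −8.42 log2). From EILP to ILCp limma called 0 of the 7, and 0 had an unadjusted p below 0.05 (median −0.28 log2). With 1.76% of all genes called higher and 1.46% lower, a count of 0 among 7 says little. Between ALP and ILCp 3.86% of all genes were called higher and 4.39% lower. The count among the 7 was again 2 higher (Pdcd1 and Cd160) and 1 lower (Havcr2), with a median of 0.05 log2. Pdcd1 lost that call with EILP left out of the model (limma adjusted p = 0.0694) and without batch 4 (0.0571).

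Of the transcription factors of innate lymphoid development, which include Tcf7 and Lef1, 13 of 13 were in the table. Between ALP and EILP 11 were higher and 1 lower, with a median of 7.10 log2 against 0 over all genes. Over all genes 2.25% were called higher and 2.79% lower. The count of 11 includes Tcf7, whose rise is set by the gate. The smallest p belonged to Bcl11b, a transcription factor of the T cell lineage that is also used in ILC2 (9.63 log2, limma adjusted p = 4.87e-09), followed by Id2 (4.58 log2) and Lef1. Gata3, needed for all ILC with high IL-7Rα, was higher by 5.55 log2. Between EILP and ILCp, where Tox and Tox2 were not called, 4 rose and 1 fell, with a median of 2.10 log2 against −0.078 over all genes. Over all genes 1.76% were called higher and 1.46% lower. Ets1 rose by 4.81 log2, Bcl11b by 3.75 and Gata3 by 2.96, and Nfil3, a factor known to act upstream of Tox in mouse ILC progenitors, fell by 2.36 log2. Nfil3 stood at 5.23 ± 0.64 (n = 7), 8.19 ± 0.09 (n = 7) and 5.83 ± 0.73 (n = 5) log2 CPM in ALP, EILP and ILCp. Its level was thus highest in EILP, while Tox and Tox2 stayed high in ILCp. Between ALP and ILCp 12 were higher and 0 lower, with a median of 8.51 log2 against −0.034 over all genes. Over all genes 3.86% were called higher and 4.39% lower. The listed factor not called was Nfil3 (0.60 log2, limma adjusted p = 0.415). Among the 12 were Tcf7 and Zbtb16, the reporter genes of the ILCp gates. Tcf7 was not called in that comparison without batch 4 (limma adjusted p = 0.0569).

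**Figure D4:**
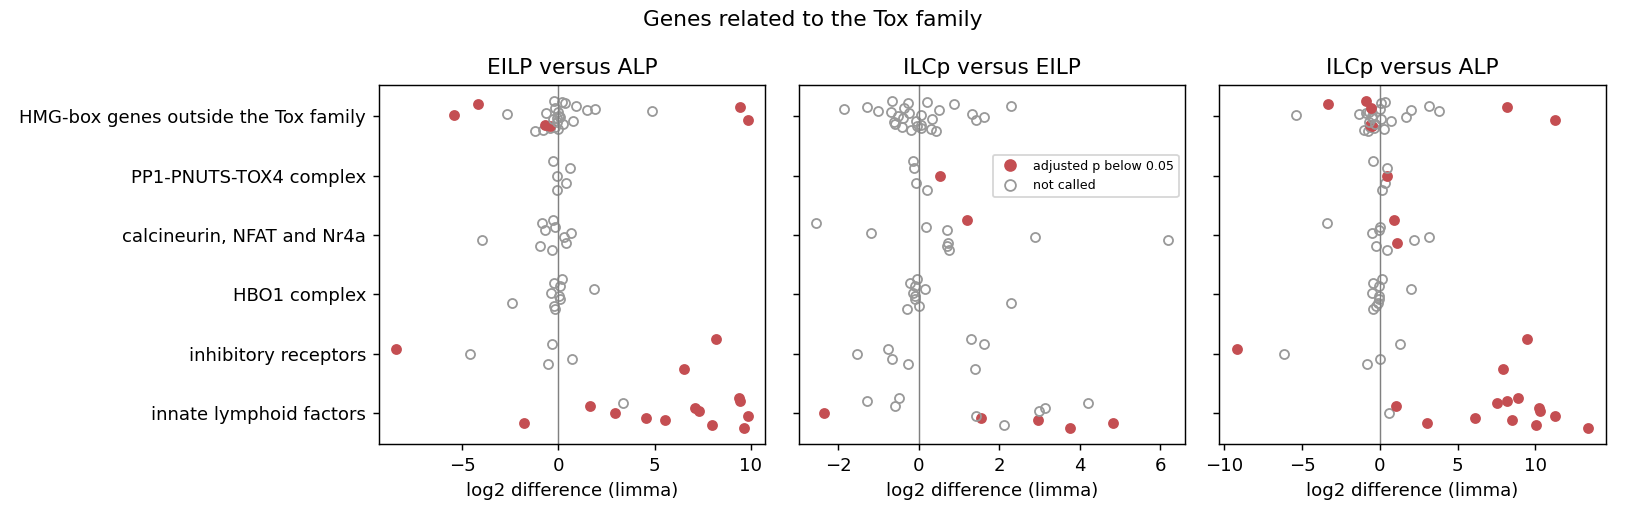
Limma differences (log2) of the genes in 6 lists related to the Tox family, in the 3 comparisons of stages, with genes at an adjusted p below 0.05 filled in red. Between EILP and ALP the innate lymphoid factors lie mostly to the right (11 higher, 1 lower), and no gene of the PP1-PNUTS-TOX4, calcineurin or HBO1 lists is filled.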

How the data were processed

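Total RNA of sorted bone marrow progenitors was extracted with RNeasy plus micro columns, and libraries were made with the SMARTer Ultra Low Input v3 kit, followed by Nextera XT (labels' protocols). The submitters' processing notes name bcl2fastq 1.8.4, STAR 2.4.0h, edgeR, limma and mm10, with no role or order. The deposited table holds log2 CPM values from the authors for 18607 genes in 19 libraries, with 9 empty columns. That these log2 values have nearly the same distribution in each library and carry no batch difference was read from the values. The distributions are not identical, since median centring moved the median difference of all genes by 0.215 log2 between EILP and ALP. Total counts are unknown, so precision rests on the replicates. With batch removed beforehand, SDs are too small, and a model without batch overstates its degrees of freedom, hence batch was kept (12 residual degrees of freedom).

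The members and gene lists were chosen with earlier results of these data known. Limma 3.58.1 in R 4.3.3 (moderated, mean-variance trend, two-sided) was fitted to all genes and libraries with group and batch, with Benjamini-Hochberg adjustment over all 18607 genes, and was tested on simulated data. EILP 3 and 4, which alone make up batch 3, bear on errors and not on differences. Levels were compared within libraries by exact permutation tests that took no account of batch (scipy 1.17.1). Named genes were the 4 members, up to 4 called genes per list and comparison with the smallest p, and the 5 genes most like each called member. Sox13 and the overlapping, marker and sorting genes fell outside this rule and were named after their values were seen. Proteins were translated from GENCODE vM21 and aligned with mafft 7.526. Promoter windows come from RefSeq (GRCm38.p6). The other settings were no batch term, a replicate block, 2 groups alone, median centring, genes above the median level, no trend, each library left out in turn, no Plzf-cre-GFP libraries, and, chosen after seeing the data, no batch 4.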

Additional observations from a re-analysis of the deposited data

Results flagged for a closer look

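Among 15 groups of values searched, 2 held a library set apart from the rest by a gap that is large against the range of its group. Chance gives such a gap in about 1 of 20 groups. Tox in EILP 2 was the lowest of the 7 EILP libraries, at 7.52 log2 CPM against 7.87 for the nearest. Tox2 minus Tox in ILCp 1 was the highest of the 5 ILCp libraries, at 1.20 log2 against 0.05 for the nearest.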

How the results depend on the processing

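Under all 27 alternatives Tox and Tox2 were called higher in EILP than in ALP (4.03 to 4.39 and 10.51 to 11.82 log2) and in ILCp than in ALP (4.49 to 5.13 and 11.81 to 13.87 log2). Tox4 was called in none of the 27, and Tox3 in none of the 26 that could be run, since the filter on mean levels removes it. Between EILP and ILCp, Tox was called without a batch term (limma adjusted p = 0.0203). Its difference stayed at 0.74 log2 and its SE went from 0.286 to 0.209, in a fit that overstates its degrees of freedom. Tox2 was called with only the 2 groups in the model (2.58 log2, limma adjusted p = 0.0422), and the cause was not tested. With libraries left out in turn, the Tox3 difference ran from −0.39 to 3.11 (ILCp minus EILP) and from −1.58 to 1.96 (ILCp minus ALP). The reporter differences changed sign, at −0.34 to 0.48 for Tox, −1.49 to 0.92 for Tox2, −2.65 to 1.67 for Tox3 and −0.20 to 0.31 for Tox4. With the replicate block they were −0.17 for Tox and −0.11 for Tox4. Whether replicate numbers pair the samples could not be told from these values. The 17 same-number pairs correlated at −0.64 to 0.116, and 1 of 19 libraries was closest to its own number. With batch differences taken out, libraries of the same batch are set in opposite directions, so a shared origin need not show as a positive correlation. Tox2 minus Tox, ILCp versus ALP, was 8.41 without batch 4 (adjusted p = 0.107), a design too small to pass.

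Of all genes, 939 were called between EILP and ALP, 598 between ILCp and EILP and 1534 between ILCp and ALP. In the same order, no batch term gave 2551, 3047 and 3856, the replicate block 1613, 1484 and 2362, and the fit without batch 4 583, 258 and 855. The last 2 comparisons gave 183 and 772 with only the groups compared and 254 and 1012 without the Plzf-cre-GFP libraries. ILCp versus EILP gave 280 without trend. Left-out libraries gave 224 (without EILP 5) to 624 for ILCp versus EILP (316 without ILCp 2, 355 without EILP 2, 384 without ILCp 1) and 920 (without ILCp 2) to 1584 for ILCp versus ALP. The change between the steps called 449 genes, and 233 without EILP 5, and the reporter comparison called 14, and 0 with the replicate block. Median centring moved the median difference of all genes by 0.215, −0.0901 and 0.125 log2 and the share called higher from 44.6% to 67.1%, 54.7% to 41.7% and 46.8% to 58.2%. Named list genes kept their call in 727 of 774 alternatives and reversed in 0. Depth is unknown, and Tox3 lies too low for its differences to be read.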
